A study of Rattus norvegicus with 30 samples.

Results

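Whether 21 d of a high salt diet changed the mRNA of the outer medulla (OM) differently from that of the renal cortex (Cx) was read as the tissue by diet interaction, the log2 ratio of high to low salt in the OM minus the same ratio in the Cx. The comparison used 20 of the 30 libraries of the series, which are the 5 libraries each of Cx LS, Cx HS21, OM LS and OM HS21. All groups were Sprague-Dawley rats, male according to the study's methods, and the tissue came from the right kidney. The LS rats ate 0.4% NaCl throughout, and the HS21 rats were switched to 4.0% NaCl for 21 d. The Cx and the OM were dissected and snap frozen, so each library holds all the cell types of its slice. Libraries carry the numbers 1 to 5 (LS) and 11 to 15 (HS21) in both tissues. By the methods, the tissues of a group were taken from its 5 kidneys, so the Cx and OM libraries share animals. Which Cx library matches which OM library is not stated, and the fit had no term for the animal, so its *P* values treat the 20 libraries as unrelated samples.

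The cortex holds the glomeruli, the convoluted proximal tubules that reclaim most of the filtered sodium, glucose and amino acids at a high oxidative cost, and the distal convoluted tubules. The outer medulla holds the straight ends of the proximal tubules (S3 segments), the thick ascending limbs that take up salt through the cotransporter encoded by *Slc12a1*, collecting ducts and the vasa recta. A gene with a positive interaction rose more, or fell less, in the OM than in the Cx, and a negative interaction is the opposite. In bulk tissue, fewer cells of a type and less RNA per cell cannot be told apart.

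The 20 libraries held 12748841 to 17048749 counts on genes. Markers fitted the labelled tissues, with *Umod*, a thick ascending limb gene, at 871 to 2234 CPM (counts scaled to a common library total) in the 10 Cx libraries and 7477 to 13681 in the 10 OM libraries. Replicate 2 of OM LS stood apart. Its 19 markers of the S1 and S2 proximal segments summed to 21710 CPM, where the other 4 OM LS libraries had 2952 to 10623 and the 5 OM HS21 libraries 4149 to 10091, and its distal convoluted tubule markers summed to 507 CPM against 69.5 to 91.6. Replicate 5 of OM LS lay at the other end, with an S1 and S2 sum of 2952 CPM against 6567 to 10623 in replicates 1, 3 and 4. Its collecting duct principal cell markers summed to 3155 CPM against 1434 to 1597 in those. Replicate 5 stayed in the fit without number 2. In the Cx the S1 and S2 sum was 41630 to 46024 CPM on LS and 22901 to 28389 at HS21, and the sum of the 11 thick ascending limb markers was 2480 to 2933 on LS and 3587 to 4728 at HS21. The shift in these sums runs alongside most results below, and its part in them was not tested. Because of replicate 2, the day 21 counts of calls, most list results and part of the single genes are given with all 20 libraries and again without both libraries numbered 2.

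**Figure D1:**
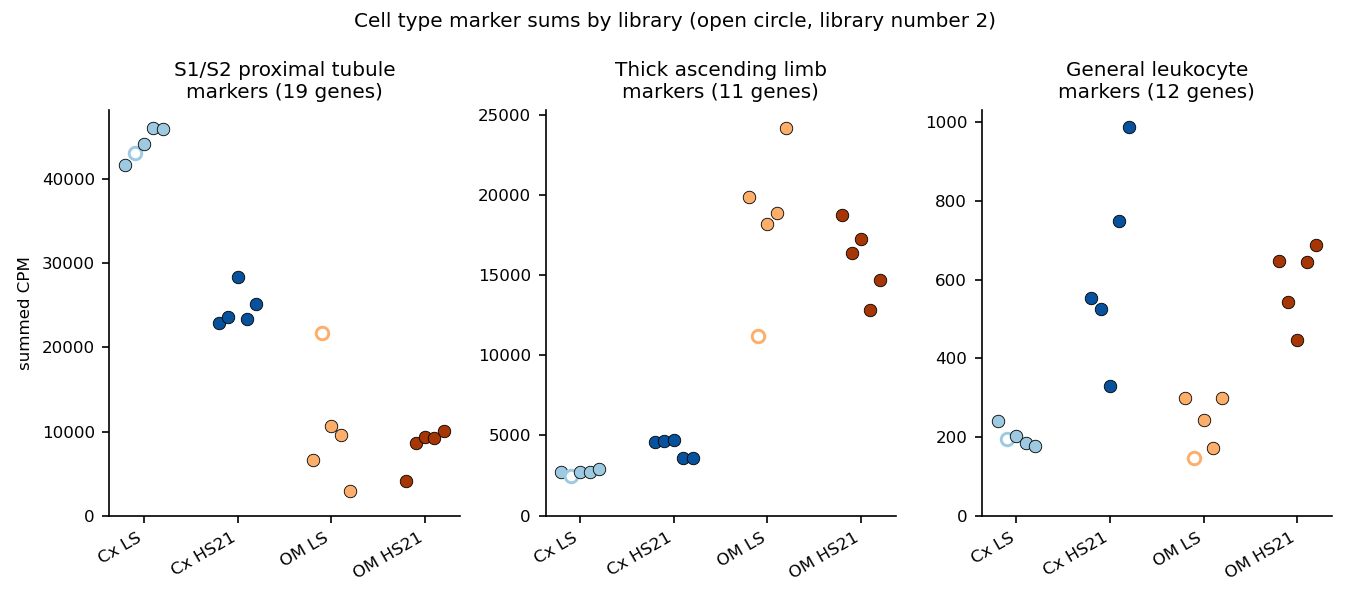
Summed CPM of the markers of S1 and S2 proximal tubules, thick ascending limbs and leukocytes in each of the 20 libraries, by group on the horizontal axis, with library number 2 drawn open. The S1 and S2 sum of OM LS replicate 2 (21710 CPM) lies above the other OM libraries, the Cx HS21 libraries lie below Cx LS for S1 and S2 markers and above them for thick ascending limb markers, and leukocyte markers are higher at HS21 in both tissues.

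With all 20 libraries, 68 of 15194 genes tested (0.448%) had a positive interaction and 33 (0.217%) a negative one at an adjusted *P* under 0.05 (edgeR's quasi-likelihood test with Benjamini-Hochberg adjustment, as for every adjusted *P* below). The median absolute log2 interaction of the 101 genes was 0.72. Without both libraries numbered 2, 546 of 15373 genes (3.55%) were positive and 371 (2.41%) negative, with a median absolute log2 value of 0.76. The 101 genes were all called again with the same sign, and they are 11% of the 917. Differences in log2 CPM between equally numbered libraries, OM minus Cx, did not overlap between the 5 LS and the 5 HS21 numbers in 342 genes that were higher at HS21 (2.25% of those tested) and 344 that were lower (2.26%). Of the 101 called genes 94 were among them, a description only, since the same values made the calls. The balance of signs depended on scaling. Positive genes were 67.3% of the calls with TMM scaling and 51.4% with total counts, where the median interaction of all genes moved from -0.06 to -0.16. Without number 2 they were 59.5% with TMM and 22.0% with total counts, and the median moved from -0.03 to -0.20.

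**Figure D2:**
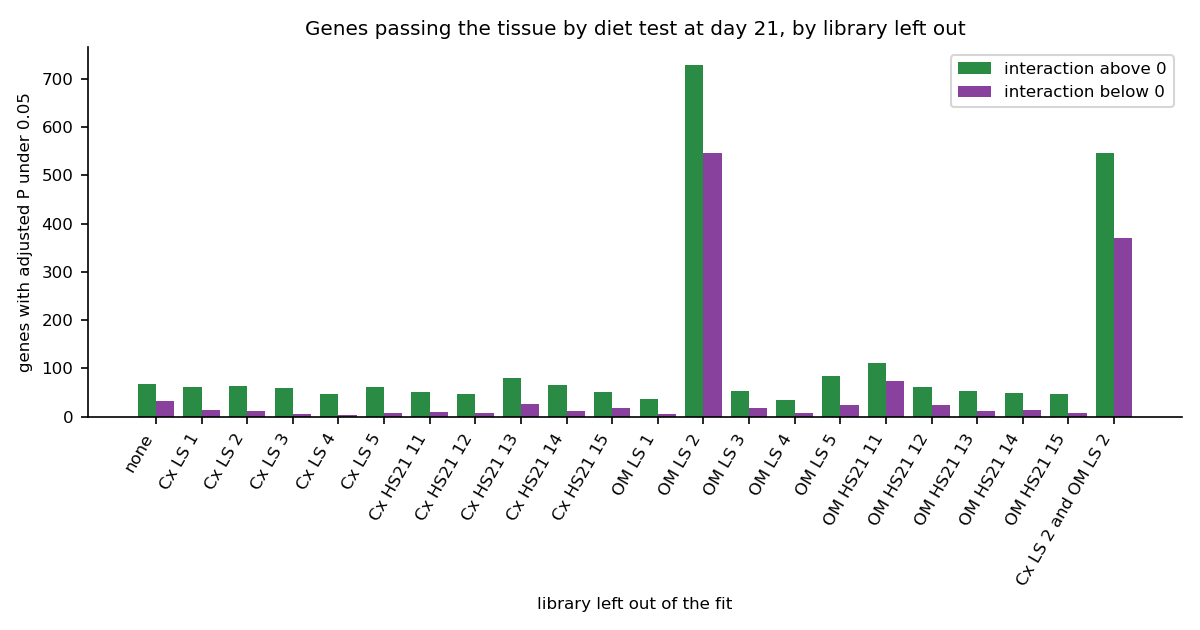
Number of genes with a positive (green) and a negative (purple) interaction at an adjusted *P* under 0.05 (vertical axis) after leaving out each library in turn (horizontal axis). Leaving out OM LS replicate 2 gave 729 and 546 genes, and leaving out any other single library gave at most 112 and 73.

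Most of the called genes had a called change in the Cx alone. Of the 68 positive genes, 62 were lowered in the Cx and not called in the OM, and of the 33 negative genes, 30 were raised in the Cx and not called in the OM. Taken alone, the Cx had 2702 raised (18.9%) and 2936 lowered (20.5%) genes of 14299 at HS21. The OM had 93 raised (0.639%) and 19 lowered (0.131%) genes of 14555, and the common dispersion was 0.0950 in the OM against 0.0299 in the Cx, so that a change of a given size was harder to call there. Positive genes had a median log2 ratio of -0.62 within the Cx against 0.05 within the OM, and negative genes 0.68 against -0.19. Without number 2 the calls within tissues were 2424 (16.7%) and 2657 (18.3%) of 14505 in the Cx and 77 (0.522%) and 31 (0.21%) of 14765 in the OM. Of the 546 positive genes, 505 were then lowered in the Cx alone, and 307 of the 371 negative genes were raised in the Cx alone. For each count of list members called below, the share over all genes given here or above is the background. For counts above or below 0, the share over all genes was not computed. Only the median interaction of all genes can be set beside them, -0.06 with all libraries and -0.03 without number 2. It moved with the scaling, to -0.16 and -0.20 with total counts.

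The tissue in which a gene was higher went with the sign. The 10 libraries of the HS14 groups (14 d of 4.0% NaCl), which the day 21 contrast did not use, gave each gene's level in the OM relative to the Cx. Of the 67 positive genes with a value, 61 (91.0%) were higher in the Cx, and of the 32 negative genes 28 were higher in the OM, where 48.4% of all genes tested were higher in the Cx. Without number 2, 482 of 541 positive genes (89.1%) were higher in the Cx and 325 of 360 negative genes higher in the OM. Most of these genes had a called change in the Cx. The share among all genes with such a change, a closer background than 48.4%, was not computed.

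**Figure D3:**
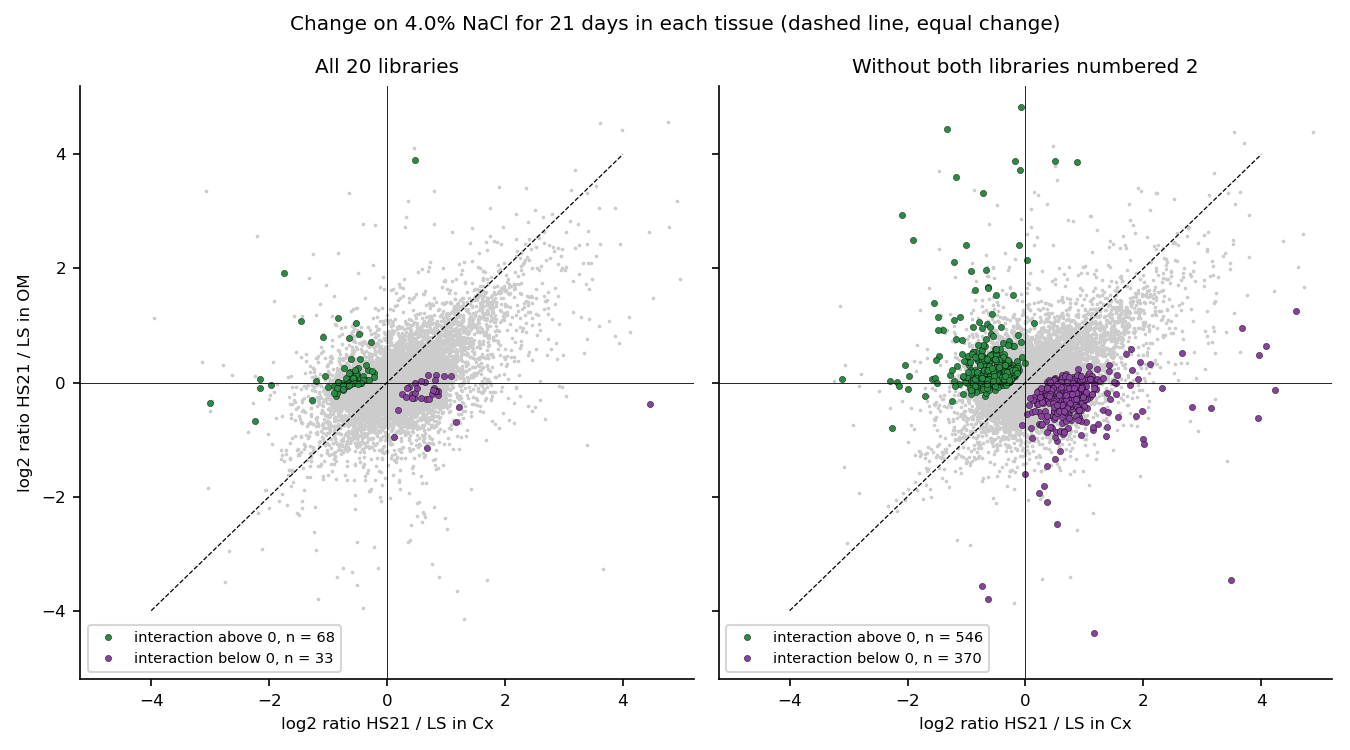
Log2 ratio of HS21 to LS in the Cx (horizontal axis) and the OM (vertical axis) of every gene tested (grey), with the genes of positive (green) and negative (purple) interaction, for all 20 libraries and without number 2. Of the 68 positive genes 67 lie left of 0, and all 33 negative genes lie right of it. The right panel shows 370 of the 371 negative genes, as 1 was tested only without number 2, and 2 and 3 uncalled genes lie outside the axes.

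Among the positive genes were carriers of the monocarboxylate family. *Slc16a1* (ENSRNOG00000019996, chromosome 2, 207108552 to 207128554, Rnor_6.0), which encodes the transporter of lactate, pyruvate and ketone bodies, had 239, 139, 112, 122 and 73.8 CPM in the 5 Cx LS libraries and 31.5, 30.1, 30.7, 31.9 and 28.9 in Cx HS21. In the OM it had 9.27, 11.3, 9.72, 10.9 and 13.7 CPM on LS and 11.2, 13.3, 7.84, 11.1 and 7.84 at HS21. Every Cx HS21 library lay below every Cx LS library, and the OM groups overlapped. The interaction was 2.06 (SE 0.32, adjusted *P* = 0.00555), and 2.09 (SE 0.36, adjusted *P* = 0.006) without number 2. *Slc16a12* (ENSRNOG00000021916, chromosome 1, 252976644 to 253000760), a creatine transporter of the same family, was 722 ± 42.3 CPM in Cx LS, 403 ± 48.7 in Cx HS21, 339 ± 12.9 in OM LS and 316 ± 41.6 in OM HS21 (mean ± SD, n = 5), with an interaction of 0.74 (SE 0.13, adjusted *P* = 0.0138). *Slc16a1* and *Slc16a12* were the 2 genes called among 20 glucose and monocarboxylate transporters, whose median interaction was 0.43 against -0.06 for all genes. Without number 2, 5 were positive and 1, *Slc2a1*, was negative, and the median was 0.86 against -0.03 for all genes. The shares over all genes in that fit were 3.55% positive and 2.41% negative.

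Genes of oxidative metabolism gave smaller values of the same sign. *Ogdh* (ENSRNOG00000005130, chromosome 14, 86414949 to 86613327), a subunit of the 2-oxoglutarate dehydrogenase complex of the TCA cycle, had 282, 309, 318, 330.3 and 314 CPM in Cx LS and 204, 191, 220.1, 198 and 194 in Cx HS21. It had 185, 251, 226, 188 and 187 CPM in OM LS and 227, 225, 254, 248 and 220.4 in OM HS21. The Cx groups were apart, and in the OM the HS21 values lay within the LS range except for 1 above it. The interaction was 0.80 (SE 0.12, adjusted *P* = 0.00501), and 0.90 (SE 0.11, adjusted *P* = 0.000794) without number 2. All 24 TCA cycle genes tested had an interaction above 0, with a median of 0.30, although *Ogdh* alone passed. Without number 2, 12 passed, all positive, with a median of 0.36. Among them were *Cs*, citrate synthase, at 0.38 (SE 0.10, adjusted *P* = 0.0399), and *Idh3a*, of isocitrate dehydrogenase, at 0.34 (SE 0.09, adjusted *P* = 0.0408). In the Cx 20 of the 24 were lowered, and in the OM none of 24 was called in either direction. Of all genes tested, 20.5% were lowered in the Cx and 3.55% were positive without number 2.

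Of the 25 genes of fatty acid oxidation tested, 23 were above 0 with all libraries, with a median of 0.33, and in the Cx 20 were lowered. Without number 2, 6 genes were positive and 1 negative, with a median of 0.49. *Hadh*, of the mitochondrial beta-oxidation spiral, was 281 ± 16.6 CPM in Cx LS and 153 ± 7.89 in Cx HS21, with 135 ± 34.8 and 118 ± 19.8 in the OM groups (mean ± SD, n = 5). Its interaction was 0.89 (SE 0.15, adjusted *P* = 0.00621) without number 2. Of the 28 nuclear-encoded genes of oxidative phosphorylation 0 passed with all libraries and 4 without number 2, all positive (*Cox5a*, *Ndufs1*, *Uqcrc2* and *Uqcrfs1*), and the median of the 28 without number 2 was 0.19. With total counts it was 0.04 with all libraries and 0.01 without number 2, against -0.16 and -0.20 for all genes. None of the 11 mitochondrially encoded genes passed in either fit, with medians of -0.07 and -0.05. Of the 20 genes of cholesterol synthesis and uptake tested with all libraries 0 passed, and without number 2, 4 of 21 were positive (*Fdps*, *Hsd17b7*, *Nsdhl* and *Sqle*). Over all genes without number 2, 3.55% were positive and 2.41% negative.

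To let promoters of called genes be read side by side, those of *Slc16a1* and *Ogdh* (positive) and of *Epb41l4b* (negative) are shown from RefSeq's GRCr8 build, from 250 bases before to 50 bases after the start, 5′ to 3′ on the gene's strand. Capitals mark letters of the motifs searched. Each of these promoters holds CACGTG (the E-box), which 9.07% of all promoters of genes tested hold. In this they are not typical.
*Slc16a1*, plus strand, chr2:194812410-194812709: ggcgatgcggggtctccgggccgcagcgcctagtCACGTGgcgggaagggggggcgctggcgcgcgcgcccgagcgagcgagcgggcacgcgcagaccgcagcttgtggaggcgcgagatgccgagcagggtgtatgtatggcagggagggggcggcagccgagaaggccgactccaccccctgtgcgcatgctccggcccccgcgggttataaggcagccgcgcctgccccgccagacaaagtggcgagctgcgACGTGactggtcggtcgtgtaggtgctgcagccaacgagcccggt
*Ogdh*, plus strand, chr14:85363781-85364080: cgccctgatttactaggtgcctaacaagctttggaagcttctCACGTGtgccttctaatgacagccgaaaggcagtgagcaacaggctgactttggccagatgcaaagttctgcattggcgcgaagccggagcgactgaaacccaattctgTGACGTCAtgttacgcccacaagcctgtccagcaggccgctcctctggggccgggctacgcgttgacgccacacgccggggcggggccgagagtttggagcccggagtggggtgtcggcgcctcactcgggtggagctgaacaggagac
*Epb41l4b*, minus strand, chr5:76647703-76648002: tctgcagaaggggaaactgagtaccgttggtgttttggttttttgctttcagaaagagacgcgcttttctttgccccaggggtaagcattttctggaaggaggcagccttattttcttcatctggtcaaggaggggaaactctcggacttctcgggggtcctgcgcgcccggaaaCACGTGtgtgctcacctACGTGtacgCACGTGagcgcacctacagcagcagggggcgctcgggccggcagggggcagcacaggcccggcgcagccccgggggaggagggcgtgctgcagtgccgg

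Of 15063 gene symbols tested, 10336 had a promoter in the table. Both strands were searched for 7 motifs. The E-box CACGTG was present in 13.65% of the promoters of 403 positive genes called without number 2, in 7.45% of those of 255 negative genes and in 9.07% of all. The cyclic AMP response element TGACGTCA was present in 3.97%, 2.35% and 2.92%. ACGTG, the core of the hypoxia response element, which every E-box match also holds, was present in 31.76%, 20.39% and 24.82%. The core TGATGNAAN of the amino acid response element was in 1.24%, 3.92% and 1.93%, and the HNF4 core CAAAGTCCA in 0.5%, 0% and 0.38%. The HNF1 core and the direct repeat bound by nuclear receptors (copies 1 base apart) were in none of the called genes' promoters and in 0.26% and 0.04% of all. These shares were not tested, and a match of letters is not a site of binding.

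Other genes fell in the Cx and were not called in the OM. *Atp6v1b2* (ENSRNOG00000011891, chromosome 16, 22326529 to 22350155), a subunit of the vacuolar proton pump, had 749, 759.8, 731, 792 and 779 CPM in Cx LS and 422, 424, 471, 455 and 466 in Cx HS21. The OM values were 232, 285, 239, 249 and 232 on LS and 221, 226, 241, 286 and 253 at HS21. The Cx groups were far apart and the OM groups overlapped, with an interaction of 0.76 (SE 0.11, adjusted *P* = 0.00501). *Dhx32*, a helicase-like protein, gave 0.84 (SE 0.12, adjusted *P* = 0.00501), and *Sec24d*, of the COPII coat that carries proteins out of the endoplasmic reticulum, gave 0.55 (SE 0.08, adjusted *P* = 0.00501). *Mlph*, which links vesicles to a myosin motor, fell from 89.7 ± 23.5 to 23 ± 8.32 CPM in the Cx and was 10.1 ± 3.8 and 9.8 ± 2.17 CPM in OM LS and OM HS21 (mean ± SD, n = 5), an interaction of 1.92 (SE 0.37, adjusted *P* = 0.0238). *Nrep* fell from 134 ± 20.1 to 28.3 ± 8.51 CPM in the Cx and was 40.7 ± 13.9 and 25.4 ± 2.96 CPM in the OM groups, an interaction of 1.56 (SE 0.31, adjusted *P* = 0.0255). Without number 2 *Nrep* was lowered in both tissues, by more in the Cx. *Hhat*, an acyltransferase of hedgehog proteins, gave 2.21 (SE 0.47, adjusted *P* = 0.0325) from low levels, 6.98 and 1.57 CPM in the Cx and 1.02 and 1.04 in the OM. *Prokr1*, a prokineticin receptor, passed (adjusted *P* = 0.0448) with 4.04 and 1.19 CPM in the Cx, but its OM libraries held at most 0.284 CPM, so its OM ratio is not given. *Tchh* was the other gene lowered in the Cx that was too low to be tested within the OM.

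*Angpt1* (ENSRNOG00000005854, chromosome 7, 81342280 to 81592206), the ligand of the endothelial receptor encoded by *Tek*, had values that went opposite ways. It had 53.3, 39.9, 34.7, 35 and 36.9 CPM in Cx LS and 23.4, 23.7, 18.6, 16.5 and 12.1 in Cx HS21. In the OM it had 5.85, 4.06, 4.51, 5.4 and 6.44 CPM on LS and 8.23, 11, 6.06, 10.1 and 10.4 at HS21. The Cx groups did not overlap, and in the OM only the lowest HS21 value lay within the LS range. The interaction was 1.88 (SE 0.28, adjusted *P* = 0.00501), while the OM ratio alone (0.79 log2) was not called. The lysosomal proteases of *Ctsa* and *Ctsb* did not pass with all libraries (adjusted *P* = 0.108 and 0.09). Without number 2 they gave 0.96 (SE 0.15, adjusted *P* = 0.00304) and 0.78 (SE 0.14, adjusted *P* = 0.00689).

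No marker of the S1 and S2 proximal tubule passed with all libraries, and 3 did without number 2. *Slc5a2* (ENSRNOG00000020039, chromosome 1, 199682688 to 199688809), the main glucose transporter of these segments, had 811, 828, 797, 743 and 772 CPM in Cx LS and 474, 467, 592, 469 and 475 in Cx HS21. In the OM it had 1.49, 63.9, 10.8, 4.88 and 1.37 CPM on LS, the second value being that of replicate 2, and 1.94, 11.3, 17.8, 39.4 and 13 at HS21. The Cx groups were apart, and the OM groups overlapped over a wide range. The interaction was 0.71 (SE 1.07, adjusted *P* = 0.79), and 2.52 (SE 0.82, adjusted *P* = 0.0746) without number 2. All 19 markers tested had an interaction above 0 in both fits. All 19 were lowered in the Cx, where 20.5% of all genes were, and none was called in the OM. Their median log2 ratio within the OM moved from -0.24 to 0.59 when number 2 was left out. Replicate 5, the lowest OM LS library for the S1 and S2 sum, stayed in that fit. The median interaction of the 19 was 0.62 with all libraries and 1.30 without number 2, and the 3 that passed were *Slc7a8*, *Slc6a19* and *Slc5a12*, carriers of amino acids and, for the last, of lactate, at 1.71 (SE 0.26, adjusted *P* = 0.00304), 2.64 (SE 0.74, adjusted *P* = 0.0463) and 3.43 (SE 0.96, adjusted *P* = 0.0456). Once replicate 2 was left out, OM LS held 0.479 to 7.85 CPM of *Slc6a19* and 0 to 4.12 of *Slc5a12*. Replicate 2 had 37.7 and 30.9 CPM. The size of these 2 interactions therefore rests on low OM LS values. Of the 10 S3 markers, which belong to the outer stripe of the OM, 0 passed in either fit, and the median moved from -0.09 to 0.46. In the 24 genes of glycine, serine and threonine metabolism, 22 were above 0 and 0 passed, and without number 2, 3 were positive (*Amt*, *Shmt1* and *Srr*), with a median of 0.82. The share over all genes was 3.55% positive without number 2.

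**Figure D4:**
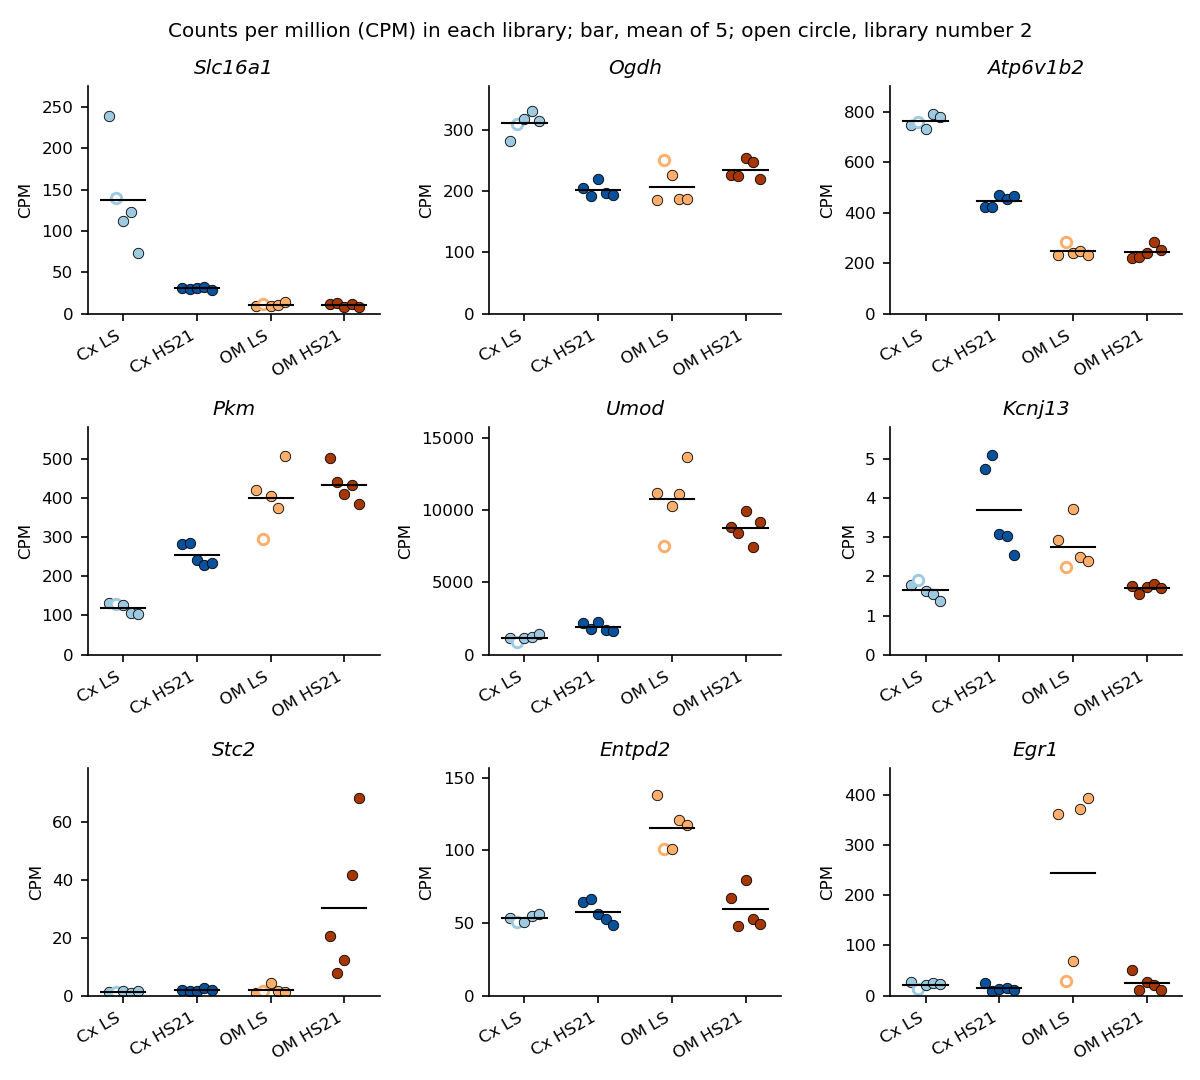
CPM (vertical axes, starting at 0) of 9 genes in each of the 20 libraries by group, with the mean of 5 as a bar and library number 2 drawn open. *Slc16a1*, *Ogdh* and *Atp6v1b2* fell in the Cx, *Pkm*, *Umod* and *Kcnj13* rose there, *Stc2* rose and *Entpd2* fell in the OM, and *Egr1* was high in 3 of the 5 OM LS libraries.

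*Pkm* (ENSRNOG00000011329, chromosome 8, 64481172 to 64502722), the pyruvate kinase of most tissues other than liver and proximal tubule, had 132, 128, 128, 107 and 104 CPM in Cx LS and 283, 284, 242, 228 and 233 in Cx HS21. It had 420.2, 296, 404, 374 and 508 CPM in OM LS and 501, 441, 409, 434 and 385 in OM HS21. The lowest Cx HS21 value exceeded the highest of Cx LS, and the OM groups overlapped. The interaction was -0.97 (SE 0.17, adjusted *P* = 0.0138), and -1.06 (SE 0.16, adjusted *P* = 0.00304) without number 2. Of the 21 glycolysis genes tested, *Pkm* alone passed with all libraries. Without number 2, *Pkm*, *Hk1* (-0.81, SE 0.16, adjusted *P* = 0.0135), *Pfkp* (-0.89, SE 0.22, adjusted *P* = 0.0281) and *Slc2a1* (-0.66, SE 0.18, adjusted *P* = 0.0432) were negative and *Eno1* was positive at 0.67 (SE 0.15, adjusted *P* = 0.0213). *Hk1* and *Pfkp* encode a hexokinase and a phosphofructokinase, and *Slc2a1* a glucose transporter of basolateral membranes. The shares over all genes were 3.55% positive and 2.41% negative without number 2. The list median was near 0 in both fits (0.10 and 0.03), and its called members had both signs. With total counts the median fell just below 0 with all libraries and to -0.14 without number 2, where all genes had -0.16 and -0.20.

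*Umod* (ENSRNOG00000015557, chromosome 1, 189186026 to 189199376), uromodulin of the thick ascending limb, had 1144, 871, 1132, 1208 and 1435 CPM in Cx LS and 2165, 1785, 2234, 1714 and 1613 in Cx HS21. In the OM it had 11185, 7507, 10277, 11132 and 13681 CPM on LS and 8833, 8419, 9946, 7477 and 9173 at HS21. Cx HS21 lay above Cx LS without overlap, and the OM groups overlapped only through replicate 2 of LS. The interaction was -1.01 (SE 0.22, adjusted *P* = 0.0415), and -1.01 (SE 0.18, adjusted *P* = 0.00689) without number 2. Of the 11 thick ascending limb markers 9 were below 0 (median -0.57), 5 were raised and 1 lowered in the Cx, and without number 2 *Kcnj1*, the apical potassium channel, also passed at -1.03 (SE 0.27, adjusted *P* = 0.0377). All 10 principal cell markers of the collecting duct were below 0, with a median of -0.90, and 0 passed with all libraries. Without number 2, 4 passed, the water channel *Aqp2* (-1.35, SE 0.38, adjusted *P* = 0.046), the vasopressin receptor *Avpr2* (-1.03, SE 0.25, adjusted *P* = 0.0282), *Hsd11b2*, which inactivates glucocorticoid in these cells (-1.16, SE 0.29, adjusted *P* = 0.0279), and *Scnn1b*, of the epithelial sodium channel (-1.09, SE 0.30, adjusted *P* = 0.0413). *Aqp2* had 135, 142, 146, 155 and 193 CPM in Cx LS and 284, 468, 360.2, 315 and 235 in Cx HS21, which did not overlap. In the OM it spanned 260 (replicate 2) to 1378 (replicate 5) on LS and 425 to 876 at HS21. Replicate 5 was also the highest OM LS library for *Avpr2*, *Hsd11b2* and *Scnn1b*. For *Scnn1b* it had 64.6 CPM, where the other OM LS libraries had 28.1 to 32.9. It stayed in the fit without number 2, and its part in these 4 calls was not tested. In the Cx 8 of the 9 principal cell markers tested and 8 of the 9 intercalated cell markers were raised, and none of the intercalated markers passed the interaction test in either fit. The shares over all genes were 18.9% raised and 20.5% lowered in the Cx, and 2.41% negative without number 2.

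The marker *Slc12a3* of the distal convoluted tubule changed the sign of its interaction with replicate 2. It had 1203, 1072, 1090.1, 1042 and 989 CPM in Cx LS and 1656, 2713, 2165, 1433 and 1667 in Cx HS21, which did not overlap. It had 8.71, 358, 20.6, 15 and 12.3 CPM in OM LS, the second value being replicate 2, and 12.5, 17.7, 32.6, 51.2 and 31.2 in OM HS21. The interaction was -2.34 (SE 1.09, adjusted *P* = 0.309) with all libraries and 0.22 (SE 0.45, adjusted *P* = 0.804) without number 2.

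*Kcnj13*, an inward rectifier potassium channel, had 1.78, 1.9, 1.64, 1.56 and 1.36 CPM in Cx LS and 4.75, 5.1, 3.07, 3.04 and 2.55 in Cx HS21. It had 2.93, 2.25, 3.73, 2.51 and 2.4 CPM in OM LS and 1.76, 1.56, 1.72, 1.82 and 1.69 in OM HS21. Both tissues separated without overlap, upward in the Cx and downward in the OM, although the OM ratio alone did not pass, and the interaction was -1.86 (SE 0.28, adjusted *P* = 0.00501). *Prkcq*, protein kinase C theta, rose from 6.41 ± 0.321 to 11.6 ± 3.06 CPM in the Cx and was 62.8 ± 12.5 and 56.5 ± 6.74 in the OM groups (mean ± SD, n = 5), an interaction of -1.01 (SE 0.23, adjusted *P* = 0.0448). The other genes the rule named were *RGD1563354* (-1.82), *Rsph1* of motile cilia (-1.66), the nucleotidase *Nt5c* (-1.08), the scavenger receptor *Ssc4d* (-0.97), the mitochondrial carrier *Slc25a43* (-0.97), *Epb41l4b* (-0.95) and *Mpnd* (-0.55), each given as the log2 interaction. All 7 were raised in the Cx and not called in the OM. Leaving out 1 library took the 33 negative calls to as few as 4 (without Cx LS replicate 4) and the 68 positive calls to as few as 34 (without OM LS replicate 4).

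**Figure D5:**
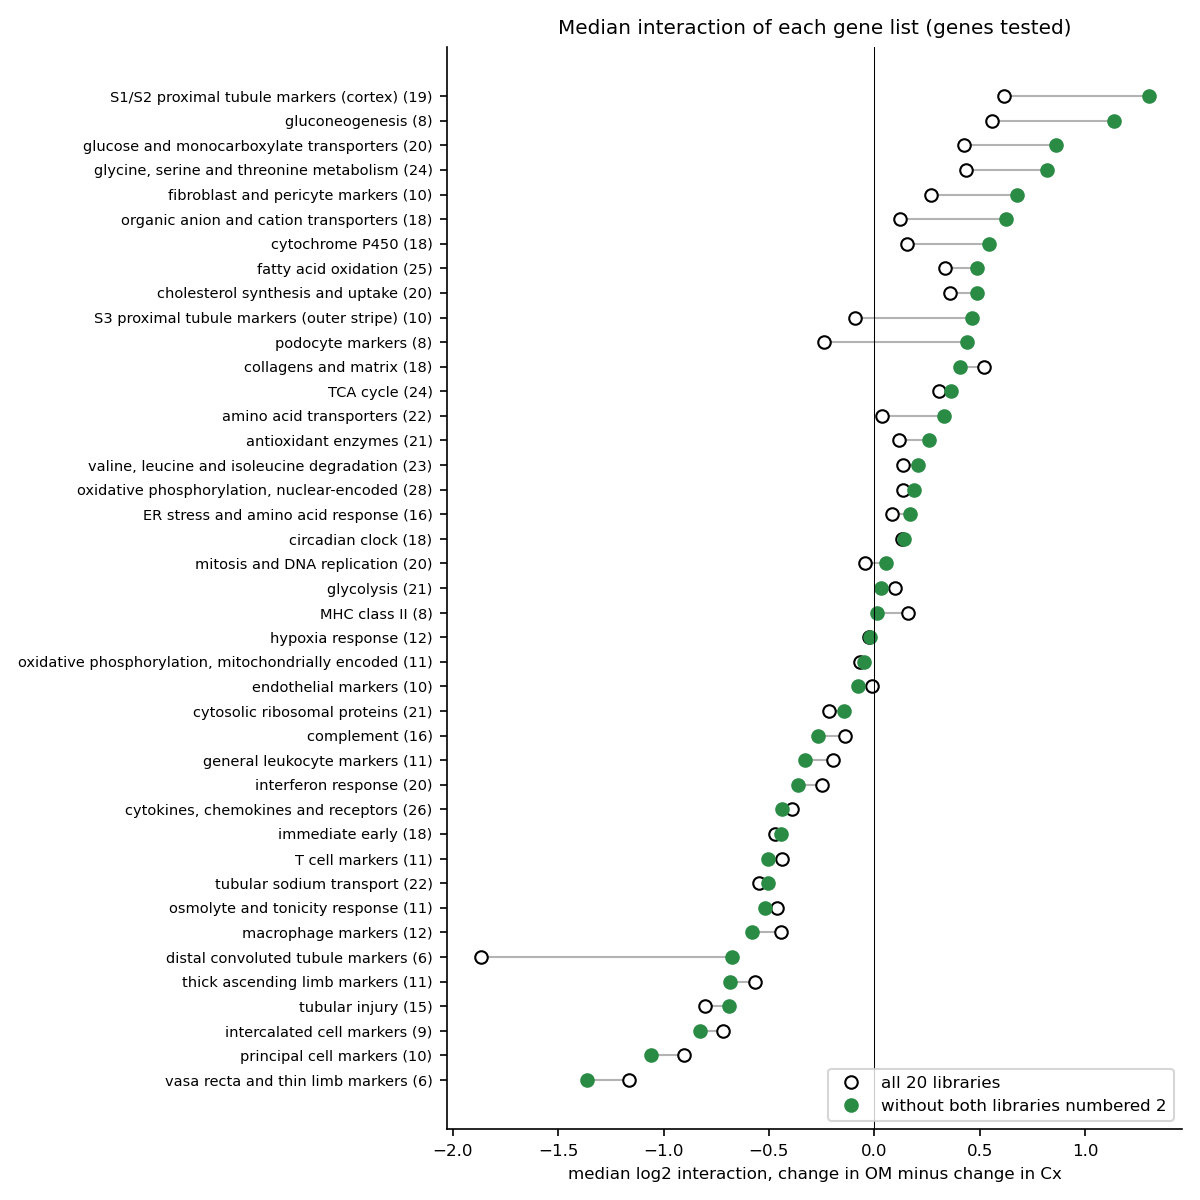
Median log2 interaction (horizontal axis) of each gene list with at least 6 genes tested (number in brackets), with all 20 libraries (open) and without both libraries numbered 2 (green). The S1 and S2 markers moved from 0.62 to 1.30, and the principal cell markers from -0.90 to -1.06.

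Of the 101 genes, 3 had a called change in the OM. *Stc2* (ENSRNOG00000020729, chromosome 10, 16542882 to 16553295), a secreted glycoprotein of the amino acid and endoplasmic reticulum stress responses, had 1.06, 1.64, 4.38, 1.67 and 1.23 CPM in OM LS and 20.8, 7.94, 12.2, 41.7 and 68.3 in OM HS21. In the Cx it had 1.39, 1.43, 1.71, 0.816 and 1.62 CPM on LS and 1.93, 1.68, 1.47, 2.64 and 2 at HS21. Every OM HS21 library lay above every other library, over a wide range. The interaction was 3.43 (SE 0.73, adjusted *P* = 0.0345), and 3.39 (SE 0.83, adjusted *P* = 0.0274) without number 2. Of the 16 genes of endoplasmic reticulum stress and the amino acid response tested, it alone passed, and without number 2 *Sesn2* passed too. *Entpd2* (ENSRNOG00000013102, chromosome 3, 2617805 to 2623445), an enzyme that removes phosphate from extracellular ATP, went the other way, with 138, 101, 101, 121 and 118 CPM in OM LS and 67.5, 48.1, 79.9, 52.6 and 49.3 in OM HS21. In the Cx it had 53.7, 51, 50.9, 54.8 and 56.2 CPM on LS and 64.2, 66.5, 56.2, 53 and 48.3 at HS21. The OM groups did not overlap and the Cx groups did, and the interaction was -1.07 (SE 0.19, adjusted *P* = 0.0115). *Cdh4*, a cadherin, had 4.42, 3.02, 5.02, 3.73 and 4.45 CPM in OM LS and 8.4, 10.2, 10.9, 7.39 and 8.28 in OM HS21. It had 5.33, 5.23, 5.45, 4.15 and 3.96 CPM in Cx LS and 4.5, 1.48, 3.7, 1.79 and 2.13 in Cx HS21. It was the 1 gene raised in the OM and lowered in the Cx, with an interaction of 1.95 (SE 0.35, adjusted *P* = 0.0138). Another 3 genes passed the interaction test without a call in either tissue, *Gstm1* (1.56), whose close paralogs make its counts uncertain, *Nrxn2* (0.99) and *Npepo* (-0.67). *Ccl9* was too low in the Cx to be tested there and is not described further. These genes were named after their values were seen, as were *Tchh* and the members of lists given only without number 2.

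Without number 2, 3 positive genes were raised in the OM alone, *Plac8* (2.12, SE 0.32, adjusted *P* = 0.00304), *Irf5* (0.90, SE 0.25, adjusted *P* = 0.0415) and *Cdh4*. *Plac8* was 6.31 ± 4.27 CPM in OM LS and 19.1 ± 6.22 in OM HS21 (mean ± SD, n = 5), with 13.9 CPM in replicate 2 of LS and 3.93 to 5 in the other 4. Among the 8 negative genes lowered in the OM alone were *Entpd2*, the amino acid transporter *Slc38a2* (-0.69, SE 0.15, adjusted *P* = 0.0196) and the immediate early gene *Fos*. Of 18 immediate early genes tested, 0 passed with all libraries and 4 without number 2, all negative, which were *Fos* (-3.15, SE 0.86, adjusted *P* = 0.0421), *Egr1* (-2.85, SE 0.68, adjusted *P* = 0.026), *Junb* (-1.60, SE 0.43, adjusted *P* = 0.0411) and *Dusp1* (-1.83, SE 0.49, adjusted *P* = 0.0378). The share over all genes was 2.41% negative without number 2. *Egr1*, a transcription factor induced within minutes of a stimulus, had 362, 30.2, 69.7, 371 and 393 CPM in OM LS and 51.4, 11.8, 27.7, 20.7 and 10.7 in OM HS21. In the Cx it had 27.3, 12.9, 20.7, 25.5 and 24.3 CPM on LS and 25.4, 8.66, 12.6, 15.1 and 11.3 at HS21. The OM LS libraries fell into 3 high and 2 low values, and the 2 low ones were replicates 2 and 3.

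Of the 11 general leukocyte markers tested, 11 were raised in the Cx and 7 in the OM, with median log2 ratios of 1.80 and 1.45, and 0 passed the interaction test in either fit. Of all genes tested, 18.9% were raised in the Cx and 0.639% in the OM. *Cd53* was 7.72 ± 2.12 and 32.3 ± 13.8 CPM in Cx LS and Cx HS21, and 9.95 ± 3.49 and 29.2 ± 6.71 in OM LS and OM HS21 (mean ± SD, n = 5), with an interaction of -0.52 (SE 0.42, adjusted *P* = 0.578). None of the 12 macrophage markers, 8 MHC class II genes or 20 interferon response genes passed in either fit, and the macrophage median was -0.44. Among 26 cytokines, chemokines and receptors 0 passed with all libraries, and without number 2, of 27, the chemokine *Ccl19* (-2.71, SE 0.71, adjusted *P* = 0.0364) and the receptor chain *Il12rb1* (-3.44, SE 0.88, adjusted *P* = 0.0332) were negative. Both were low in Cx LS, at 0.545 to 1.31 CPM for *Ccl19* and 0.0649 to 0.701 for *Il12rb1*, so the size of their interactions is uncertain. Of the 18 collagen and matrix genes 0 passed, and *Col4a1*, of basement membranes, passed without number 2 at 1.06 (SE 0.23, adjusted *P* = 0.0196), lowered in the Cx alone. *Anxa2*, 1 of 15 tubular injury genes, gave -1.07 (SE 0.19, adjusted *P* = 0.00689) there, together with *Krt18* (negative) and *Krt8* (positive).

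After 14 d the same test called 0 of 15091 genes (0%), with 281 positive and 278 negative at an unadjusted *P* under 0.05 and a smallest adjusted *P* of 0.577 (edgeR), while DESeq2's Wald test called 7 and 2. The HS14 comparison shares the 10 LS libraries with the day 21 comparison. OM HS14 replicate 10 held 5408126 counts, where replicates 6 to 9 held 13024645 to 16557589. Cx HS14 replicate 10 had an S1 and S2 marker sum of 29407 CPM, where replicates 6 to 9 had 40054 to 42941. Both libraries also entered the levels of the OM relative to the Cx given above, and their part in these results was not tested. At 14 d *Slc16a1* had an interaction of 0.10 (SE 0.38, adjusted *P* = 1), *Ogdh* 0.21 (SE 0.16, adjusted *P* = 1), *Pkm* -0.31 (SE 0.23, adjusted *P* = 1), *Stc2* 2.84 (SE 0.92, adjusted *P* = 1) and *Entpd2* -0.82 (SE 0.17, adjusted *P* = 0.577). Whether the interaction changed between 14 and 21 d was not tested.

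The calls differed in how much they rested on single libraries and on the fit. Of the 28 called genes named, 12 passed whichever of the 20 libraries was left out, which were *Angpt1*, *Atp6v1b2*, *Cdh4*, *Dhx32*, *Entpd2*, *Kcnj13*, *Mpnd*, *Ogdh*, *Pkm*, *Sec24d*, *Slc16a1* and *Slc16a12*. Among those 12, *Atp6v1b2*, *Cdh4*, *Kcnj13*, *Mpnd*, *Sec24d* and *Slc16a12* did not pass with all 30 libraries in 1 fit. *Angpt1* and *Slc16a1* did not pass in another alternative, voom with weights by tissue, and *Sec24d* did not pass with total counts. *Stc2* lost its call in 14 of the 20, with an adjusted *P* (edgeR) of 0.0156 to 0.0742, and *Umod* in 16 of 20, with 0.00375 to 0.0875. *Hhat* lost it in 14 of 20 and *Prokr1* in 17, and *Nt5c*, *Nrxn2* and *RGD1563354* in 15 each. *Prkcq*, *Rsph1* and *Ssc4d* lost it in 16 each, *Npepo* in 13, *Slc25a43* in 8, *Gstm1* in 7, *Epb41l4b* in 3, *Mlph* in 2 and *Nrep* in 1. All of these kept their sign. With the library number as a block, 10 of the 28 did not pass, at adjusted *P* values of 0.0509 to 0.122 (edgeR). These were *Mlph*, *Prokr1*, *Nrxn2*, *RGD1563354*, *Rsph1*, *Nt5c*, *Prkcq*, *Slc25a43*, *Epb41l4b* and *Npepo*, so the values given above for them hold only for the fit without the block.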

How the data were processed

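Messenger RNA of the Cx and the OM was sequenced in 30 libraries, of which 20 enter the day 21 comparison and the 10 of the HS14 groups the day 14 comparison and the reference levels of each tissue. According to the methods and the submitters' processing notes, the authors aligned poly(A) reads from non-directional libraries with HISAT2 (version 2.0.5) to the Ensembl Rnor_6.0 genome and counted them per gene with featureCounts (version 1.5.0-p3). StringTie (version 1.3.3b) is listed too. The libraries do not mark strand, so overlapping and antisense genes cannot be told apart. The deposited counts of 32545 genes are raw, and the FPKM values the authors deposited were used in 1 alternative as log2(FPKM + 1). Columns of the authors' own comparisons hold fold changes and *P* values and were not used.

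Counts were scaled by TMM and filtered with filterByExpr, and the 4 groups were fitted together in edgeR (version 4.0.16, R 4.3.3) with no block for the kidney, since no source links the libraries of the tissues by number. The contrast was tested by the quasi-likelihood test with Benjamini-Hochberg adjustment over all genes tested, at a threshold of 0.05. CPM values use the same TMM factors, and log2 CPM adds a prior count of 2. Each tissue was also fitted alone. The alternatives used DESeq2 (version 1.42.0) and limma (version 3.58.1), other scalings and filters, and left out each library in turn. The code was tested on simulated data. No 2 libraries of a group had the same counts within sampling noise (smallest chi-square per gene 7.29 over 40 pairs).

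The genes and lists were chosen with earlier results of these data known. Of 666 listed symbols, 654 were found, 7 of them under an older symbol. Named are the 8 called protein-coding genes with the largest interaction in each direction (mean of at least 1 CPM, called with the same sign without number 2) and then the 4 with the smallest *P*, the 3 members of each list with the smallest *P*, genes named by the study beside mRNA data, and 5 checks of the dissection. Not all are printed, and other genes named were chosen after their values were seen. Some genes are not reported here. A planned exact permutation test of single genes is not given, since the genes were picked on the same values.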

Additional observations from a re-analysis of the deposited data

Results flagged for a closer look

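In 16 of 304 groups of 5 libraries examined, 1 library lay apart from the other 4 by Dixon's ratio (its gap to the nearest library over the range of the group), where chance gives about 1 in 20. The total is near that rate. Replicate 2 of OM LS was that library in 6 of them. It was high for *Slc12a3* (ratio 0.77), *Ctsa* (0.777), *Ctsb* (0.77), *Plac8* (0.811) and the summed distal convoluted tubule markers (0.861), and low for *Il12rb1* (0.715), which had 1.12 CPM there and 8.16 to 17.5 in the other 4. For the genes among these that passed only without number 2, the call therefore rests on leaving that library out.

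The other 10 were spread over the groups. In Cx LS, replicate 4 was low for *Stc2* (0.711), replicate 2 low for *Dusp1* (0.815) and replicate 3 high for *Irf5* (0.858). In Cx HS21, replicate 11 was low for *Dhx32* (0.772), replicate 13 high for *Slc5a2* (0.932) and replicate 14 low for *Hadh* (0.805). *Scnn1b* was high in OM LS replicate 5 (0.812) and in OM HS21 replicate 11 (0.778). *Il12rb1* was high in OM HS21 replicate 12 (0.728), and the summed S1 and S2 markers were low in OM HS21 replicate 11 (0.821), at 4149 CPM where the other 4 had 8607 to 10091.

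The change in the OM differed from that in the Cx by the interaction test in 28 named genes, given here as the log2 interaction. It was negative in *Kcnj13* (-1.86), *RGD1563354* (-1.82), *Rsph1* (-1.66), *Nt5c* (-1.08), *Entpd2* (-1.07), *Prkcq* (-1.01), *Umod* (-1.01), *Ssc4d* (-0.97), *Slc25a43* (-0.97), *Pkm* (-0.97), *Epb41l4b* (-0.95), *Npepo* (-0.67) and *Mpnd* (-0.55). It was positive in *Stc2* (3.43), *Hhat* (2.21), *Slc16a1* (2.06), *Cdh4* (1.95), *Mlph* (1.92), *Angpt1* (1.88), *Gstm1* (1.56), *Nrep* (1.56), *Nrxn2* (0.99), *Dhx32* (0.84), *Ogdh* (0.80), *Atp6v1b2* (0.76), *Slc16a12* (0.74) and *Sec24d* (0.55). *Prokr1* had a fitted value of 3.67, which depends on the prior count because its OM libraries were at or near 0.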

How the results depend on the processing

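The number of calls depended on the test and on 1 library, and the balance of their signs on the scaling. With 68 positive and 33 negative genes reported, DESeq2's Wald test gave 350 and 206, limma on log2(FPKM + 1) 137 positive, all 30 libraries in 1 fit 23 and 4, total counts 54 negative, no low-count filter 10 negative, and voom with weights by tissue 11 negative. Without both libraries numbered 2 the calls were 546 and 371. Alternatives chosen after seeing the data gave, without number 2, 505 and 311 (voom with weights by tissue), 949 and 753 (DESeq2) and 238 and 845 (total counts), and voom with weights by library gave 1375 and 1553 on all 20. Leaving out 1 library gave 34 to 729 positive and 4 to 546 negative genes, the highest of both without OM LS replicate 2. At 14 d DESeq2 gave 7 and 2, and no library left out gave any call by edgeR.

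Within the Cx, total counts gave 4401 raised and 1653 lowered genes. Within the OM, total counts gave 35 and 9, DESeq2 535 and 166, leaving out number 2 gave 31 lowered, and leaving out 1 library gave 9 to 159 raised and 0 to 31 lowered genes. The sign of *Slc12a3* reversed from -2.34 to 0.22 without number 2, 0.15 with the replicate block, 0.16 with voom by tissue, 0.22 with DESeq2 and 0.042 with total counts, all 4 also without number 2, and to 0.24 with voom by library. Leaving out 1 library gave -2.65 to 0.22. None of the 28 named called genes reversed. Of the 28, 18 lost the call with all 30 libraries in 1 fit, 15 with voom by tissue (*Slc16a1* and *Stc2* among them), 10 without a low-count filter, 10 with the block, 6 with total counts, 3 with FPKM and 0 with DESeq2. The cause of these differences was not tested.

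Both tissues of a group come from the same 5 kidneys, but no source says that equal numbers are 1 kidney. Deviations of equally numbered libraries correlated above 0.1 in 8 of 10 pairs (0.30 to 0.62 in the 5 of HS21, -0.16 to 0.25 in the 5 of LS), and 7 of 10 Cx libraries correlated best with their own number, a hint of pairing that did not hold for every number. A replicate block gave 60 and 34 calls, and 634 and 615 without number 2. The dispersion in the OM (0.0950 against 0.0299 in the Cx) limits which changes there could be called at 5 libraries a group.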

Other observations

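Other gene groups gave few calls in the interaction test, and 0 with all 20 libraries. Over all genes, 3.55% were positive and 2.41% negative without number 2. In the Cx 18.9% of all genes were raised and 20.5% lowered, and in the OM 0.639% and 0.131%. Single calls in lists this small are not read as a result about the list. Of the 21 cytosolic ribosomal protein genes, the Cx had 14 raised and the OM 0, the median interaction was -0.21, and without number 2 *Rpl11* was negative. Of the 20 mitosis and DNA replication genes, the Cx had 11 lowered and the OM 4, with median log2 ratios of -0.81 and -0.74, and without number 2 *Mcm6*, of the replicative helicase, was negative. Of the 21 antioxidant genes, the Cx had 10 lowered and the OM 0, and *Gpx1* and *Gsr*, a peroxidase and the reductase of glutathione, were positive without number 2.

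Transport genes beyond those of glucose had both signs. Among 22 genes of tubular sodium transport, 12 were raised and 2 lowered in the Cx and 0 called in the OM, the median interaction was -0.55, and *Hsd11b2*, *Scnn1b* and the kinase *Stk39* were negative without number 2. Of the 6 vasa recta and thin limb markers, the urea transporter *Slc14a1* and *Slc4a11* were negative there. Of the 18 organic anion and cation transporters, 10 of the 17 tested in the Cx were lowered, and the carnitine carrier *Slc22a5* was positive without number 2. The circadian clock, branched-chain amino acid and cytochrome P450 lists had 0 calls in both fits, with medians of 0.13, 0.13 and 0.16 over all 20 libraries. With total counts these medians were 0.03, 0.04 and 0.10.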
